A study of Mus musculus with 2 samples.

Results

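The cells described here are mouse bone marrow cells that carry the transcripts of haematopoietic stem cells (HSCs), many transcripts of the stress-induced transcription factor gene Atf3 and few of Fos. They were selected on their own counts of unique molecular identifiers (UMIs, each standing for 1 captured transcript). A called cell had at least 2500 UMIs, at least 500 genes and at most 10% mitochondrial UMIs. An HSC-gated cell was a called cell with at least 5 UMIs summed over Procr, Mecom, Hlf, Mllt3, Fgd5, Ctnnal1, Slamf1 and Hoxb5 and none of Flt3. It also had under 5 UMIs of the platelet genes Pf4, Itga2b, Cavin2 and Gp9, at most 3 of the B cell genes Cd79a and Vpreb3, and under 3 of Rsad2. Of these, the cells with at least 5 UMIs of Atf3 and under 5 of Fos are called Atf3-high HSCs below. They numbered 458 of 2080 HSC-gated cells and of 11214 called cells in all. The 652 HSC-gated cells with at least 5 UMIs of Fos are called Fos-high HSCs, and the 970 with under 5 of each are called low HSCs.

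The series holds 2 droplet-based single-cell RNA libraries of HSCs from bone marrow of C57BL/6J mice. The first library came from naive, untreated mice and the second from mice challenged with Listeria monocytogenes, a bacterium that lives inside host cells, 6 weeks after the challenge. The labels give both groups as wild type and as 6 to 8 weeks old, and do not say whether that age was at challenge or at sampling. The deposited name of the Listeria library, unlike its label, refers to a knockout, so a difference of genotype and the challenge cannot be told apart. The number of mice pooled and the surface markers of the sort are not stated. With 1 library per group, every difference below compares libraries or sets of cells within them. No p-value can be given, and each 95% interval covers counting error only.

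Atf3 encodes a basic leucine zipper factor of the ATF/CREB family that is induced by many stresses and by Toll-like receptor signalling, and it can pair with Jun proteins. Fos and Egr1 belong to the immediate early genes, which cells transcribe within minutes of a stimulus and also during tissue dissociation. NF-kB factors switch on chemokine genes such as Cxcl2 and also the genes of their own inhibitors, which ends the response.

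Atf3-high HSCs were 29.4% of HSC-gated cells in the naive library (312 of 1060, exact Clopper-Pearson 95% interval 26.7 to 32.3%). In the Listeria library they were 14.3% (146 of 1020, 12.2 to 16.6%). These intervals do not overlap. Fos-high HSCs took the opposite order, at 26.6% (24.0 to 29.4%) in naive against 36.3% (33.3 to 39.3%) in Listeria HSC-gated cells. A further 89 naive and 52 Listeria cells, counted here as Fos-high, had at least 5 UMIs of both genes. The combination of high Atf3 and low Fos was not limited to HSC-gated cells. Outside the HSC gate, 21.5% (20.4 to 22.6%) of naive and 13.4% (12.3 to 14.5%) of Listeria called cells had it. Among cells with over 3 UMIs of Cd79a and Vpreb3 and under 5 of the HSC genes, called B-lineage cells below, the shares were 28.3% (26.0 to 30.8%) and 23.4% (19.4 to 27.7%). Among called cells with a Flt3 UMI, a mark of multipotent progenitors, they were 23.3% (21.2 to 25.6%) and 9.75% (7.98 to 11.8%). The share was thus lower in the Listeria library in each of these populations, and the intervals of the B-lineage cells overlap.

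**Figure D1:**
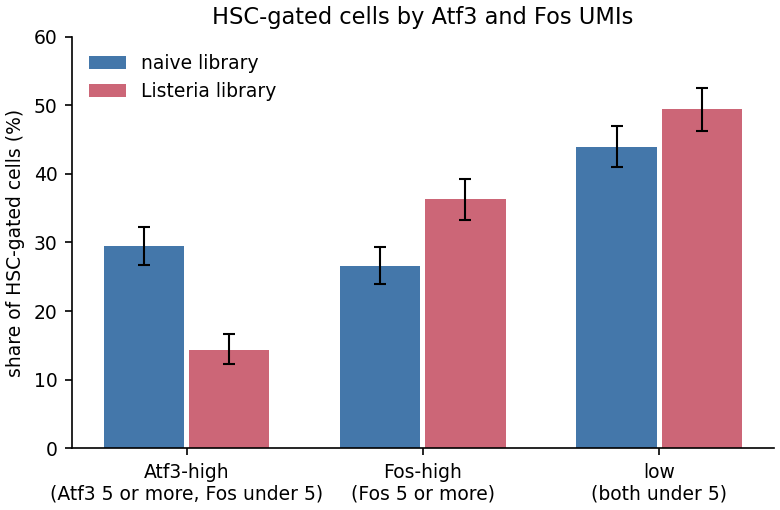
Share of HSC-gated cells (%) that were Atf3-high, Fos-high or low in each library, with exact 95% intervals as bars. The Atf3-high share was 29.4% for naive and 14.3% for Listeria cells.

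The Atf3-high HSCs were about as deep as the other HSC-gated cells. Their median was 6960 UMIs (naive) and 7220.5 UMIs per Listeria cell, against 6935 and 7167 for Fos-high and 6473 and 6498 for low HSCs. After thinning each cell to 2500 UMIs, Atf3-high HSCs held a median of 1134 and 1149.5 genes, fewer than Fos-high (1161 and 1224) and low HSCs (1169.5 and 1207). Median mitochondrial shares were 4.23% and 3.76%. Of the 14 barcodes called in both libraries, 0 were HSC-gated in both. Summed, the naive Atf3-high cells held 2413770 UMIs and the Listeria ones 1092879.

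Most lists of markers of other cell types had low summed levels in these cells, and the neutrophil and stromal lists stood out. The B-lineage, megakaryocyte and basophil lists had no gene that reached a mean of 20 CPM (the UMIs of a gene per 1000000 UMIs summed over a set of cells) over the 6 sets compared (3 gates in 2 libraries). Their summed levels in Atf3-high HSCs were 33.6, 7.04 and 15.3 CPM in the naive and 6.41, 4.58 and 6.41 in the Listeria library. The lists of T and natural killer cells, of monocytes and of dendritic cells summed to 78.7, 188 and 160 CPM in naive and 24.7, 113 and 126 in Listeria Atf3-high HSCs. The erythroid list summed to 12.8 and 16.5 CPM. The stromal list had 1 of 7 genes measured and summed to 509 and 469 CPM, almost all of it Apoe, a lipid carrier gene, at 502 and 461 CPM. In the other 4 sets the stromal list summed to between 423 and 618 CPM. The B-lineage list does not hold the immunoglobulin genes Ighm and Igkc, whose levels are given at the end. The neutrophil list, with 3 of 7 genes measured, summed to 1279 CPM in naive Atf3-high HSCs and 60.4 in Listeria ones. In the other 4 sets it summed to between 63.6 and 253 CPM. Of the S100a8 UMIs in the naive cells, 68.0% came from 1 cell, as did 64.6% of those of S100a9. Without 3 naive Atf3-high cells that had at least 20 UMIs of the pair, the naive sum was 93.1 CPM.

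The HSC label was checked against genes that the selection had not used. Of 26 measured HSC genes, 10 were over 1.5-fold higher in Atf3-high HSCs than in called cells outside the HSC gate in both libraries. In both libraries at once, 0 were over 1.5-fold lower. Over all genes 7.17% were higher by this criterion, and nothing further is read from it, since the gate itself was set on HSC genes. Tcf15, which encodes a factor linked to HSC quiescence, was 2.41 log2 units higher among naive and 1.94 among Listeria cells. Other HSC genes did not separate the cells: Meis1 differed by 0.59 and -0.02 units, and Runx1 by -0.14 and -0.19. The cells outside the gate were not typed as a whole, and 1388 of the 5315 naive and 415 of the 3819 Listeria ones were B-lineage cells.

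Levels below are in CPM, over the summed cells of a gate in 1 library. The 5702 genes with a mean of at least 20 CPM over the 6 sets, and not used in the selection, were compared. A gene is called higher or lower than another gate where it differed by over 1.5-fold in the same direction in both libraries. Atf3 itself, which chose the cells, stood at 2219 CPM in naive and 2013 CPM in Listeria Atf3-high HSCs, against 660 and 260 in Fos-high and 188 and 111 in low HSCs. The Atf3 count per cell had a median of 12 UMIs (5 to 160) in the naive and 11 (5 to 80) in the Listeria library. Fos stood at 141 and 82.4 CPM in Atf3-high and at 156 and 83.8 in low HSCs, so these 2 gates hold like amounts of Fos. Since Atf3 and Fos define the gates, the differences between them are a description and not a test.

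Against Fos-high HSCs, 230 genes were higher (4.03% of those compared) and 306 lower (5.37%). Against low HSCs, 80 were higher (1.4%) and 51 lower (0.894%). Scaling by trimmed means of M values (TMM) shifted each log2 ratio against Fos-high HSCs by 0.13 (naive) and 0.19 (Listeria), and then 384 genes were higher and 152 lower. Against low HSCs, it moved the counts to 101 higher and 24 lower. The signed sizes below are without TMM. In all, 37 genes were higher than in both other gates and 30 were lower than in both. Among genes with a mean of at least 50 CPM, Cxcl2, Cxcl10 and Traf1 were the only ones in the 12 highest against each of the other gates, ranked by the smaller of the 2 libraries' log2 ratios.

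Secreted signals made up the steepest part of this pattern. The list holds 28 genes for chemokines and growth factors, of which 9 reached the mean of 20 CPM. That mean includes the Atf3-high sets, so a gene high only in these cells could pass it. This can raise the counts and medians of the list, which are a description only. Of the 9 measured genes, 4 were higher than in Fos-high HSCs (Hbegf, Cxcl10, Cxcl2 and Ccl5). Against low HSCs 7 were higher, and none was lower in either comparison. The list's median log2 ratio was 1.04 and 1.15 against Fos-high and 1.27 and 1.71 against low HSCs, in the naive and the Listeria library. The medians over all genes were -0.05, -0.10, -0.09 and -0.11.

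Cxcl2 encodes a chemokine that attracts neutrophils. Its level in Atf3-high HSCs was 756 CPM (722 to 792) among naive and 1013 CPM (954 to 1074) among Listeria cells. In Fos-high HSCs it was 238 and 52.5 CPM, and in low HSCs 41.6 and 75.8 CPM. The 2 Atf3-high values are above all 4 others, and the intervals are separate. The log2 ratio to low HSCs was 4.18 (3.93 to 4.45) in the naive and 3.74 (3.55 to 3.94) in the Listeria library. The ratio to Fos-high HSCs was 1.67 (1.53 to 1.81) and 4.27 (4.02 to 4.53).

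Cxcl10, which encodes a chemokine induced by interferon and NF-kB that attracts T cells, stood at 294 CPM (273 to 317) in naive and 253 CPM (224 to 284) in Listeria Atf3-high HSCs. Fos-high HSCs had 111 and 39.9 CPM, and low HSCs 22.04 and 39.5 CPM. A single cell held 84 of the 143 Cxcl10 UMIs of Listeria low HSCs, whose level without that cell was 16.4 CPM. It was the only measured member of the type I interferon list of 13 that was higher than in both other gates. Hbegf, which encodes a growth factor that binds the epidermal growth factor receptor, stood at 287 and 233 CPM, against 139 and 66.2 in Fos-high and 107 and 57.8 in low HSCs. For both genes the 2 Atf3-high libraries lay above all 4 other sets.

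Ccl4, a chemokine gene for monocytes and lymphocytes, differed between the libraries. It stood at 275 CPM (254 to 296) in naive but 117 CPM (97.7 to 139) in Listeria Atf3-high HSCs. It was higher than in low HSCs in both libraries (33.5 and 37.9 CPM). Against Fos-high HSCs (96.8 and 78.8 CPM) the naive fold was 2.84 and the Listeria fold 1.49, and so Ccl4 was not called. Vegfa, the vascular growth factor gene, stood at 209 and 207 CPM, higher than in low HSCs (134 and 105 CPM) but not over 1.5-fold above naive Fos-high HSCs (153 CPM).

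**Figure D2:**
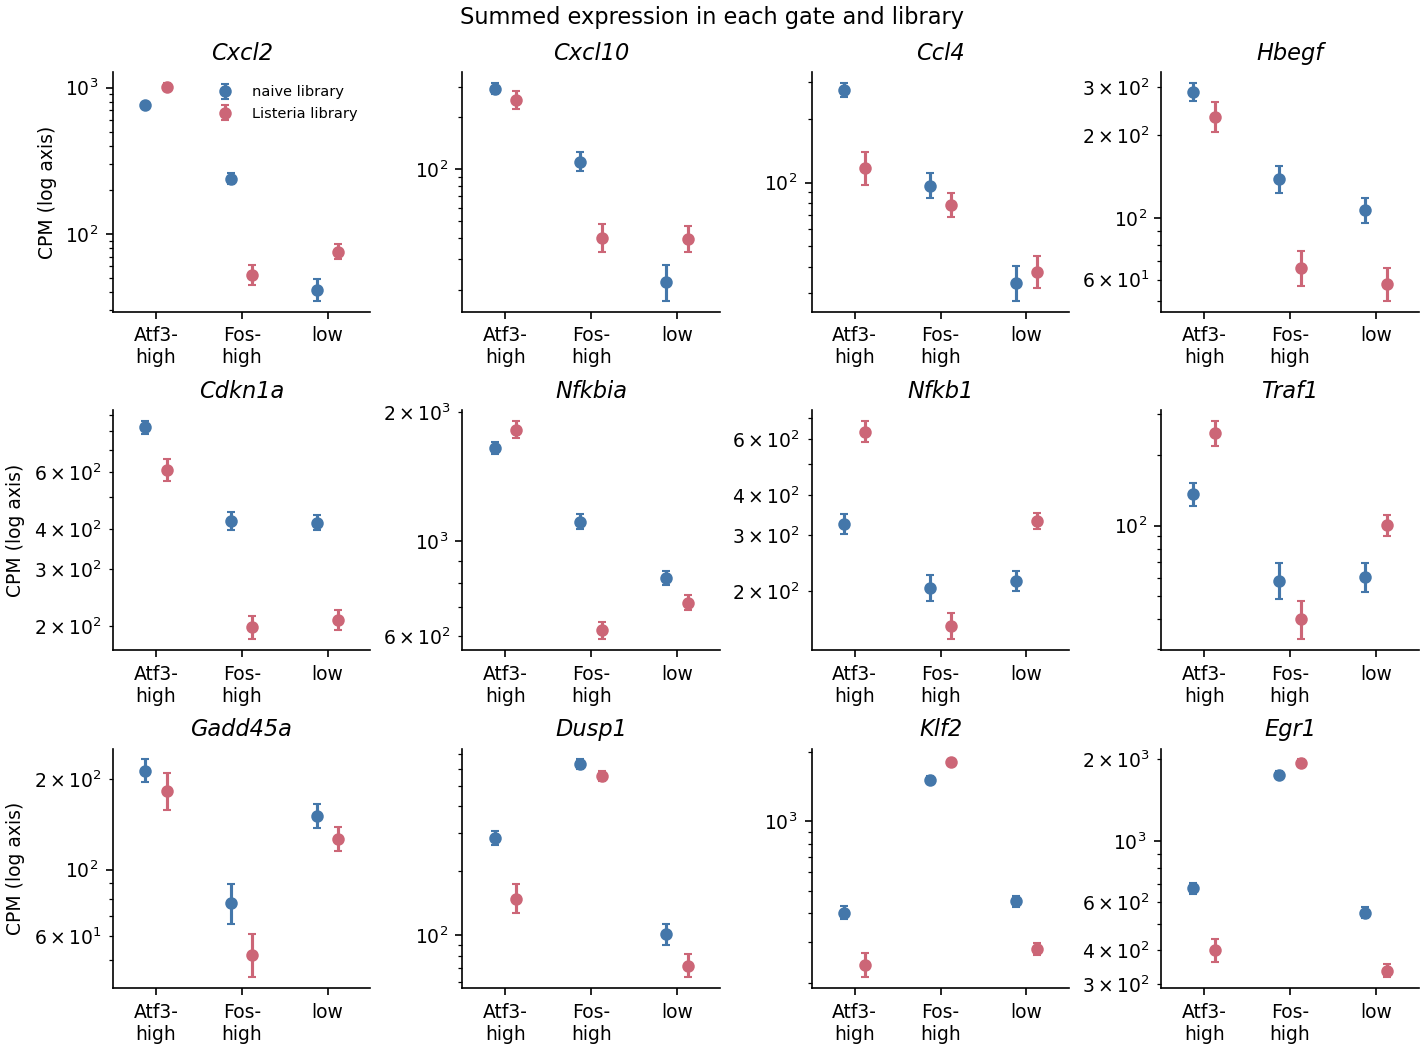
CPM (log axis) of 12 genes in Atf3-high, Fos-high and low HSCs of the naive and the Listeria library, with exact Poisson 95% intervals as bars. Cxcl2, Cxcl10, Hbegf, Cdkn1a, Nfkb1 and Traf1 were highest in Atf3-high HSCs of both libraries, Klf2 and Egr1 in Fos-high HSCs.

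The NF-kB pathway genes showed the next clearest pattern. Of 18 measured, 6 were higher than in Fos-high HSCs (Nfkb1, Nfkb2, Rel, Rela, Tnip1 and Traf1) and 9 were higher than in low HSCs (Nfkb1, Nfkb2, Nfkbia, Nfkbiz, Nfkbid, Tnfaip3, Icam1, Birc3 and Traf1). None was lower in either comparison. The list's median was 0.40 and 0.98 log2 units above Fos-high and 0.58 and 0.71 above low HSCs. Nfkbia encodes the inhibitor that holds NF-kB in the cytoplasm. It stood at 1648 CPM (1598 to 1700) in naive and 1819 CPM (1740 to 1901) in Listeria Atf3-high HSCs, against 821 and 719 in low HSCs. In Fos-high HSCs it stood at 1110 and 619 CPM, and the naive fold of 1.49 kept it from being called there. Nfkb1, which encodes the p50 subunit and its precursor, stood at 326 and 632 CPM, against 205 and 156 in Fos-high and 215 and 332 in low HSCs. The naive fold over low HSCs was 1.51, just past the criterion, and the Listeria low HSCs slightly exceeded the naive Atf3-high ones. Traf1, which encodes an adaptor of tumour necrosis factor receptors, stood at 136 and 247 CPM, against 58.4 and 39.9 in Fos-high and 60.5 and 100 in low HSCs.

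The 250 bases before a RefSeq start of Atf3 and of 3 genes that were high with it are shown, because the genes were high together and their promoters could be read from RefSeq (build GRCm38.p6, the build named mm10 by the submitters). Letters in capitals match 1 of 5 motifs on either strand. The motifs were the cyclic AMP response element TGACGTCA, the AP-1 site TGANTCA, the composite C/EBP and ATF site TTGCATCA, the CArG box of serum response factor and an NF-kB site. Atf3 lies on chromosome 1 (chr1:191170296-191218039, minus strand), Cxcl2 and Cxcl10 on chromosome 5 and Nfkb2 on chromosome 19. These gene spans are from GENCODE. The RefSeq start of Atf3 lies inside its longer GENCODE span, and that of Cxcl2 lies slightly inside its GENCODE gene. For Nfkb2 the first of 3 annotated starts is shown.
Atf3, chr1:191183334-191183583, minus strand: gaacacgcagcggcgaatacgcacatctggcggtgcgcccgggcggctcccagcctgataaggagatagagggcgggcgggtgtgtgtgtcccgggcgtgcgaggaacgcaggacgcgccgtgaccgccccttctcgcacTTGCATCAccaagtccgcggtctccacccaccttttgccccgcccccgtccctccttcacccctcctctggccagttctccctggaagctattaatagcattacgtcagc
Cxcl2, chr5:90903649-90903898, plus strand: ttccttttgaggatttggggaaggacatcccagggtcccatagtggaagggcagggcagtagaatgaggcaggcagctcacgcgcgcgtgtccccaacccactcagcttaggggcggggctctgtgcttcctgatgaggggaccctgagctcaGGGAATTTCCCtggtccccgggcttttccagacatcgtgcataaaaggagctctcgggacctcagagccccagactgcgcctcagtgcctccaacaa
Cxcl10, chr5:92348890-92349139, minus strand: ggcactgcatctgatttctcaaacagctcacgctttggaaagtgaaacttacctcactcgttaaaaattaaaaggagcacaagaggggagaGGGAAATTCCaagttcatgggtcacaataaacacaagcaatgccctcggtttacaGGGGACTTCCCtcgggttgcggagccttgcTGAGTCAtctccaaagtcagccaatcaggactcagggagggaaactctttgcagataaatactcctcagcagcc
Nfkb2, chr19:46304487-46304736, plus strand: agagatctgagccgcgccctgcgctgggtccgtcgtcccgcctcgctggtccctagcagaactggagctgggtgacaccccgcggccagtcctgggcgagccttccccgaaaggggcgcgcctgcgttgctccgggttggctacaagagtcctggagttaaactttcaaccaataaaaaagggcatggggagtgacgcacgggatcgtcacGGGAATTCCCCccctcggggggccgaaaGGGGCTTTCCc

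The capitals in the Cxcl2 window are 2 overlapping matches to the NF-kB motif, and those in the Nfkb2 window are 3 matches to it, of which 2 overlap. The Cxcl10 window has 3 NF-kB matches, of which 2 overlap, and the AP-1 match TGAGTCA. The Atf3 window has the composite site TTGCATCA. Of the 37 genes higher than in both other gates, 26 had a window in the table. An NF-kB match was in 4 of these 26 genes (15.4%), against 10.7% of the 4578 compared genes with a window and 7.25% of all 32851 windows. Cxcl2, Cxcl10 and Nfkb2, whose windows are shown, are among these 4, so the windows shown do not stand for the 26 genes. An AP-1 match was in 4 (15.4%), against 4.98% of compared genes and 6.75% of windows. The response element TGACGTCA was in 2 (7.69%, against 3.67% and 1.55%), and the CArG box in 2 (7.69%, against 1.44% and 1.47%). The composite site was in 0 of the 26, against 0.612% and 0.791%. These are matches of letters only, and counts of 0 to 4 genes are too few to rank the motifs.

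Chemokine transcripts were unevenly spread among the Atf3-high HSCs. At least 1 Cxcl2 UMI was found in 50.6% of the naive and 52.1% of the Listeria cells, and at least 5 in 74 of 312 and 37 of 146. The fewest cells that held 50% of all Cxcl2 UMIs numbered 16 (naive) and 6 (Listeria), and the highest Listeria cell alone held 20.4% of them. Cxcl10 reached at least 5 UMIs in 44 naive and 16 Listeria cells, and Ccl4 in 28 and 7. Any of these 3 genes reached 5 UMIs in 101 naive and 45 Listeria cells, and all 3 together in 11 and 3. Most Atf3-high HSCs thus had fewer than 5 UMIs of each of these chemokines. Nfkbia was broader, with at least 5 UMIs in 262 naive and 126 Listeria cells.

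Atf3-high HSCs more often had a Cxcl2 UMI than the other HSC-gated cells and B-lineage cells did. The part of free RNA in these shares was not tested. A Cxcl2 UMI was found in 8.86% of naive and 5.78% of Listeria B-lineage cells, although their median depths of 9248.5 and 9971 UMIs were larger. In low HSCs it was found in 11.8% and 10.7%, at the median depths of 6473 and 6498 given above. Among Fos-high HSCs, 32.6% of naive and 12.2% of Listeria cells had a Cxcl2 UMI. After thinning to 2500 UMIs, 37.2% and 36.3% of Atf3-high HSCs still had one, close to each other in the 2 libraries. Meg3, an imprinted non-coding RNA and a marker given for these cells, was found in 33.7% of naive and 26.7% of Listeria Atf3-high HSCs, against 0.504% and 0.241% of B-lineage cells. Its level of 241 and 160 CPM was higher than in low HSCs (138 and 87.1 CPM). In the naive library it did not exceed Fos-high HSCs (225 CPM, log2 ratio 0.10 with an interval of -0.07 to 0.28), and in the Listeria library it did (52.9 CPM).

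The level of Cxcl2 also followed the count of Atf3 among cells with under 5 Fos UMIs. In the naive library Cxcl2 stood at 26.6 CPM in 174 cells with no Atf3 UMI, 49.7 in 292 cells with 1 to 4, 248 in 116 cells with 5 to 9, 498 in 109 cells with 10 to 19, and 1736 in 87 cells with 20 or more. In the Listeria library the same bins held 21.6, 142, 565, 915 and 1898 CPM, in 293, 211, 66, 43 and 37 cells. Each bin was above the one before it in both libraries. Other genes did so too, among them Nfkbia, from 589 to 2161 CPM in the naive and from 577 to 2357 CPM in the Listeria library. Cdkn1a likewise climbed in each bin, from 314 to 1075 CPM and from 167 to 770 CPM. Further genes did not climb in each bin of both libraries. Traf1 stood at 79.8, 126, 245, 216 and 287 CPM in the Listeria library. Hbegf stood at 78.9, 122, 213, 337 and 325 CPM in the naive and at 28.1, 94.3, 204, 146 and 382 CPM in the Listeria bins. Ccl4 in the Listeria library stood at 248 CPM in the cells with 10 to 19 Atf3 UMIs and at 70.0 with 20 or more. Klf2 was lowest in the cells with the most Atf3 UMIs, though it did not fall in each bin. It stood at 515, 414, 440, 408 and 348 CPM in the naive and at 301, 253, 281, 213 and 196 CPM in the Listeria bins.

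**Figure D3:**
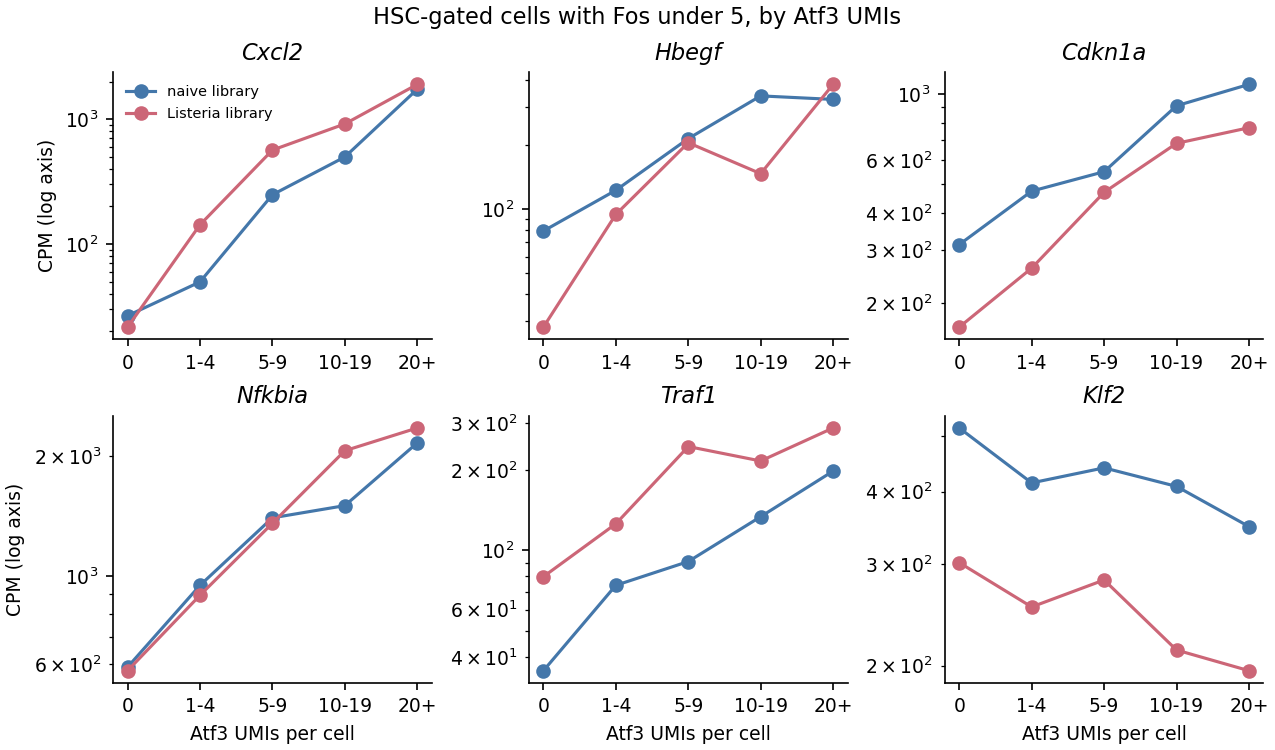
CPM (log axis) of 6 genes in HSC-gated cells with under 5 Fos UMIs, grouped by Atf3 UMIs per cell, in each library. Cxcl2 went from 26.6 to 1736 CPM in the naive and from 21.6 to 1898 CPM in the Listeria library.

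No gap marked the threshold itself. In 94 naive cells with 3 or 4 Atf3 UMIs, just outside it, Nfkbia stood at 1108 CPM, and in 65 cells with 5 or 6, just inside, at 1306 CPM. The 58 and 38 Listeria cells at these counts had 984 and 1058 CPM. Cxcl2 at these edges was 73.3 and 131 CPM in the naive, but 310 and 107 CPM in the Listeria library. At the Fos threshold, 47 naive Atf3-high HSCs with 3 or 4 Fos UMIs had 753 CPM of Klf2, and 21 cells just outside, with 5 or 6, had 1020 CPM. The Listeria sets at that edge, with 11 and 6 cells, had 1323 and 1015 CPM.

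Of 16 measured genes that restrain the cell cycle, 2 were higher than in Fos-high HSCs (Cdkn1a and Gadd45a) and 1 was lower (Btg2), with list medians of -0.08 and -0.11 log2 units. Against low HSCs 3 were higher (Cdkn1a, Btg2 and Gadd45b) and 0 lower, with medians of 0.26 and 0.54. Cdkn1a, which encodes the p21 inhibitor of cyclin-dependent kinases, stood at 822 CPM (787 to 859) in naive and 609 CPM (563 to 657) in Listeria Atf3-high HSCs. Fos-high HSCs had 423 and 199 CPM, and low HSCs 418 and 209 CPM. Its log2 ratio was thus 0.96 and 1.62 to Fos-high, and 0.98 and 1.54 to low HSCs. The p53 target list, which also holds Cdkn1a and Btg2, shared this in part. Of 15 measured members, 2 were higher and 2 lower than in Fos-high HSCs, with list medians of -0.21 and -0.14 log2 units. Against low HSCs 4 were higher (Cdkn1a, Gdf15, Plk2 and Btg2) and 0 lower, with medians of 0.07 and 0.19. Over all genes compared, 1.4% were higher than in low HSCs. Mki67, which proliferating cells express, was lower than in both other gates, at 47.6 and 19.2 CPM against 74.9 and 111 in Fos-high and 83.5 and 94.9 in low HSCs. Only 21 UMIs of it were counted in Listeria Atf3-high HSCs, and with an HSC sum of at least 8 its naive ratios turned positive (1.21 and 0.58). Of 13 measured replication genes, 2 were lower than in Fos-high HSCs and 0 differed from low HSCs by the criterion.

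Feedback regulators of growth factor signalling were partly included. Of 10 measured genes, 4 were higher than in Fos-high HSCs (Dusp16, Spred1, Phlda1 and Errfi1), 1 was lower (Dusp6), and 3 were higher than in low HSCs (Dusp5, Phlda1 and Errfi1). Phlda1 stood at 227 and 181 CPM, against 131 and 61.3 in Fos-high and 88.5 and 58.6 in low HSCs. In the endoplasmic reticulum (ER) stress list of 12, the chaperone gene Hspa5 was higher than in both gates, at 4353 and 4146 CPM against 2890 and 2686 in Fos-high and 2807 and 2356 in low HSCs. Xbp1 and Herpud1 were higher than in Fos-high HSCs only, at 170 and 277 CPM and at 247 and 254 CPM. In low HSCs they had 166 and 245 CPM, and 218 and 193 CPM. The integrated stress list, which holds the targets of Atf4, had 1 gene higher and 1 lower than in Fos-high HSCs among 10 measured (Eif4ebp1 and Ddit4). Against low HSCs 2 were higher (Ppp1r15a and Cebpb) and 1 lower (Vldlr, at only 13.3 and 14.6 CPM), with list medians of 0.14 and 0.29 log2 units. Over all genes compared, 4.03% were higher and 5.37% lower than in Fos-high HSCs, and 1.4% and 0.894% than in low HSCs. Nothing further is read from 1 or 2 of these 10 genes. Atf4 itself stood at 436 and 496 CPM and passed the criterion in neither comparison.

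Immediate early genes fell between the other gates as a list, though not gene by gene. The median log2 ratio was -0.15 and -0.34 to Fos-high and 0.65 and 0.94 to low HSCs. Of 25 measured, 2 were higher and 8 lower than in Fos-high HSCs, while 13 were higher and 0 lower than in low HSCs. Nr4a3 and Trib1 were higher than in both gates. Dusp1, which encodes a phosphatase of MAP kinases, stood at 286 and 148 CPM in Atf3-high, 629 and 556 in Fos-high and 101 and 71.9 in low HSCs. Btg2, an antiproliferative gene, stood at 493 and 250 CPM, against 940 and 627 in Fos-high and 252 and 156 in low HSCs. Zfp36, which encodes a protein that destabilizes cytokine transcripts, was the only other gene that was over 1.5-fold below Fos-high and over 1.5-fold above low HSCs in both libraries, at 496 and 348 CPM against 880 and 1003, and 241 and 187. Ier3 stood at 715 and 609 CPM, higher than in low HSCs (282 and 223) and 1.22 log2 units above Fos-high HSCs in the Listeria but 0.51 in the naive library. Maff, which encodes a small Maf protein and was listed with the AP-1 genes, stood at 195 and 127 CPM against 82.3 and 37.3 in low HSCs. Fos-high HSCs with at least 5 Atf3 UMIs had 191 and 122 CPM of Maff, and the other Fos-high HSCs 114 and 94.8 CPM.

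Other genes separated Fos-high HSCs from both gates that lack Fos. Klf2, a transcription factor gene tied to quiescence, stood at 402 and 239 CPM in Atf3-high, 449 and 280 in low and 1511 and 1801 in Fos-high HSCs. Egr1, an immediate early transcription factor gene that is linked to HSC quiescence, stood at 672 and 399 CPM, against 548 and 337 in low and 1752 and 1937 in Fos-high HSCs. Jun, a partner of both Fos and Atf3 proteins, stood at 2796 and 2381 CPM, against 5852 and 5689 in Fos-high HSCs and 2030 and 1207 in low HSCs. In the Listeria library its log2 ratio to low HSCs was 0.98 (0.91 to 1.05), and in the naive library 0.46 (0.41 to 0.51). Gadd45a, a growth arrest and DNA damage gene, ran the other way, with 213 and 182 CPM in Atf3-high, 151 and 126 in low and 77.2 and 51.8 in Fos-high HSCs. Ehd1, which encodes an endocytic recycling protein, stood at 77.1 and 124 CPM, against 56.5 and 97.3 in low and 26.5 and 24.9 in Fos-high HSCs. Luzp1, which encodes a leucine zipper protein of the actin cytoskeleton, had 117 and 179 CPM, against 88.8 and 150 in low and 43.4 and 36.8 in Fos-high HSCs. Tnfrsf12a, the receptor gene of the cytokine TWEAK, had 229 and 214 CPM, against 169 and 122 in low and 97.7 and 58.8 in Fos-high HSCs. On the lower side, Erg, an ETS factor gene needed for HSC maintenance, had 35.2 and 31.1 CPM, against 51.5 and 39.3 in low and 80.8 and 89.6 in Fos-high HSCs. Rhob, which encodes a small GTPase that is induced early, had 304 and 230 CPM, against 664 and 719 in Fos-high HSCs.

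Of 16 measured genes for the cytoskeleton and S100 proteins, 6 were higher than in Fos-high HSCs (Epb41l2, Plec, Lmna, Anxa2, Lgals3 and Tubb6) and 0 differed from low HSCs by the criterion. Plec, which encodes the cytoskeletal linker plectin, stood at 458 and 738 CPM in Atf3-high, 418 and 715 in low and 278 and 265 in Fos-high HSCs. Of 26 measured HSC genes not used in the selection, 8 were lower than in Fos-high HSCs and 1 was lower than in low HSCs (Vldlr), with 0 higher in either. Meis1, a homeobox gene needed by HSCs, stood at 154 and 115 CPM, against 262 and 334 in Fos-high and 193 and 172 in low HSCs. The list's median was -0.41 and -0.66 against Fos-high, and -0.04 and -0.11 against low HSCs, where TMM scaling turned the naive value to 0.05. Cd34, a surface protein gene that is low in long-term HSCs of the mouse, stood at 97.8 and 97.0 CPM, against 157 and 161 in low HSCs. Fos-high HSCs had 120 and 174 CPM of Cd34, and the naive log2 ratio of -0.29 kept it from being called there. Txnip, which encodes an inhibitor of thioredoxin, stood at 264 and 284 CPM, against 422 and 406 in low and 458 and 455 in Fos-high HSCs.

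**Figure D4:**
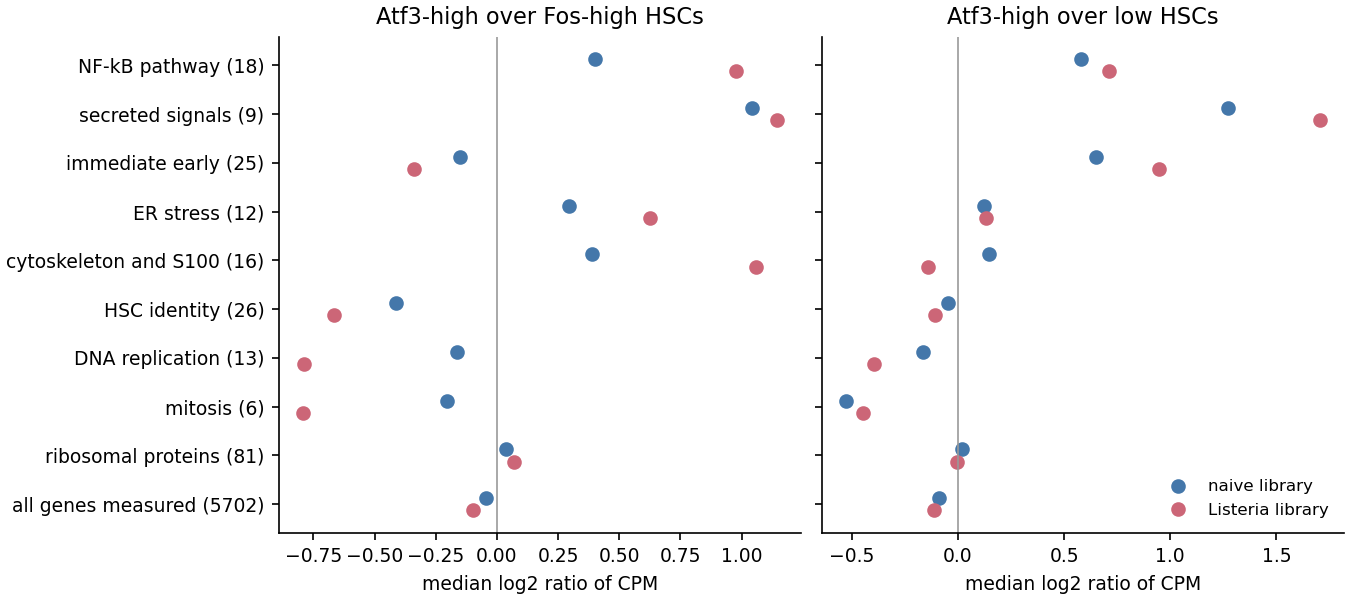
Median log2 ratio of CPM in Atf3-high HSCs over Fos-high (left) and low HSCs (right) for 9 gene lists and all genes measured, with the number of measured genes in brackets and 1 point per library. Secreted signals and NF-kB genes lay to the right in both comparisons, HSC identity genes to the left against Fos-high HSCs.

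Several groups did not set the cells apart. None of 9 class I and 6 class II antigen presentation genes, and none of 15 antioxidant genes, passed the criterion against either gate. Of 81 measured ribosomal protein genes, 1 was lower than in Fos-high HSCs and 0 differed from low HSCs. Of 23 measured genes for oxidative phosphorylation, 1 was lower than in Fos-high HSCs and 0 differed from low HSCs.

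The HSC-gated cells high in both Atf3 and Fos show which genes followed Atf3 within Fos-high HSCs. In the naive library Cxcl2 stood at 440 CPM in the 89 cells high in both and 113 CPM in the 193 Fos-high cells with under 5 Atf3 UMIs, and Hbegf at 261 and 63.6 CPM. In the Listeria library Cxcl2 stood at 95.04 and 44.1 CPM in 52 and 318 cells, and Hbegf at 144 and 50.8 CPM. Only 45 Cxcl2 UMIs were counted in those 52 cells. Ccl4 did not follow Atf3 in this way, at 102 and 93.9 CPM in the naive and 48.6 and 84.8 CPM in the Listeria library. Klf2 was high in both sets, at 1337 and 1619 CPM in the naive and 1766 and 1808 CPM in the Listeria library. Gadd45a was low in both sets, at 71.7 and 80.6 CPM and at 63.4 and 49.5 CPM. Cxcl2 in the Listeria cells high in both genes stayed far below the 1013 CPM of Listeria Atf3-high HSCs.

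Between the libraries, 509 genes were over 1.5-fold higher in Listeria than in naive Atf3-high HSCs (8.93%) and 423 were lower (7.42%). With TMM scaling the counts were 414 and 517, and so the balance of directions depends on the scaling. With genes of at least 50 CPM, 159 were higher and 131 lower. The chemokine and growth factor list had 0 of 9 measured genes higher and 2 lower (Ccl4 and Gdf15). Cxcl2 was 0.42 log2 units higher (0.31 to 0.53) and Cxcl10 0.22 lower (-0.43 to -0.02). Atf3-high HSCs of the Listeria library thus had Cxcl2 and Cxcl10 levels near those of the naive library, although their share of HSC-gated cells was lower.

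Of 18 measured NF-kB genes, 5 were higher in Listeria Atf3-high HSCs (Nfkb1, Nfkb2, Relb, Tnip1 and Traf1) and 1 was lower (Nfkbid). The log2 ratio of Listeria over naive was 0.96 (0.81 to 1.11) for Nfkb1, 0.86 (0.62 to 1.10) for Traf1 and 1.05 (0.76 to 1.33) for Tnip1, which encodes an inhibitor of NF-kB signalling. Low HSCs had ratios of 0.62, 0.73 and 0.88 for the same genes, and Fos-high HSCs -0.40, -0.55 and 0.05. For these 3 genes, taken from those called higher, the ratio in Atf3-high HSCs thus had the sign of that in low HSCs. It lay on the other side of 0 from Fos-high HSCs for 2 of the 3. For Nfkb1 the ratio of low HSCs was below the interval of Atf3-high HSCs. Over the 18 measured NF-kB genes, the median ratio was 0.26 in Atf3-high, -0.04 in low and -0.34 in Fos-high HSCs. These differences of differences were not tested.

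Of 16 measured cytoskeleton and S100 genes, 7 were higher in Listeria Atf3-high HSCs, and 1 was lower (Lgals1). Over all genes compared, 8.93% were higher and 7.42% lower. The list's median log2 ratio was 0.33 in Atf3-high, 0.63 in low and -0.08 in Fos-high HSCs. The rise was thus not particular to Atf3-high HSCs. Epb41l2, which encodes a protein that links the membrane to the cytoskeleton, had the largest ratio but for the haemoglobin gene Hbb-bs among genes with a mean of at least 50 CPM in the naming rule. Hbb-bs had a ratio of 2.02 on 6 and 11 UMIs. Epb41l2 stood at 77.9 CPM (67.2 to 89.9) in naive and 271 CPM (241 to 304) in Listeria Atf3-high HSCs, a log2 ratio of 1.80 (1.53 to 2.07). In low HSCs it stood at 57.7 and 179 CPM, and in Fos-high HSCs at 44.7 and 45.5 CPM. S100a4, a calcium-binding protein gene tied to cell motility, stood at 31.9 and 88.8 CPM, against 45.0 and 108 in low and 43.4 and 23.5 in Fos-high HSCs. Anxa2, which encodes a membrane-binding annexin, stood at 38.1 and 86.0 CPM, against 37.6 and 111 in low and 21.9 and 29.1 in Fos-high HSCs. Lrrfip1, which encodes a nucleic acid sensor and actin regulator, stood at 290 and 600 CPM, against 254 and 635 in low and 204 and 238 in Fos-high HSCs. For all 4 genes the Listeria value of Atf3-high HSCs was over that of the naive library, with separate intervals.

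Among genes lower in Listeria Atf3-high HSCs, Id1, a target of bone morphogenetic protein signalling, stood at 82.0 CPM in naive and 20.1 CPM in Listeria cells, where only 22 UMIs were counted. Of 11 measured targets and regulators of that signalling, 2 were higher (Ski and Tgfbr1) and 3 lower (Id1, Id3 and Smad7). Fosb was lower by a log2 ratio of -1.04 (-1.14 to -0.94), Egr1 by -0.75, Klf2 by -0.75, Btg2 by -0.98 and Dusp1 by -0.95. Low HSCs had -1.20, -0.70, -0.68, -0.69 and -0.49, and Fos-high HSCs 0.09, 0.15, 0.25, -0.58 and -0.18. Cdkn1a was lower by -0.43 (-0.56 to -0.31) and Hbegf by -0.30 (-0.51 to -0.09), which is less than 1.5-fold. The HSC identity list had 6 of 26 genes lower and 0 higher.

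**Figure D5:**
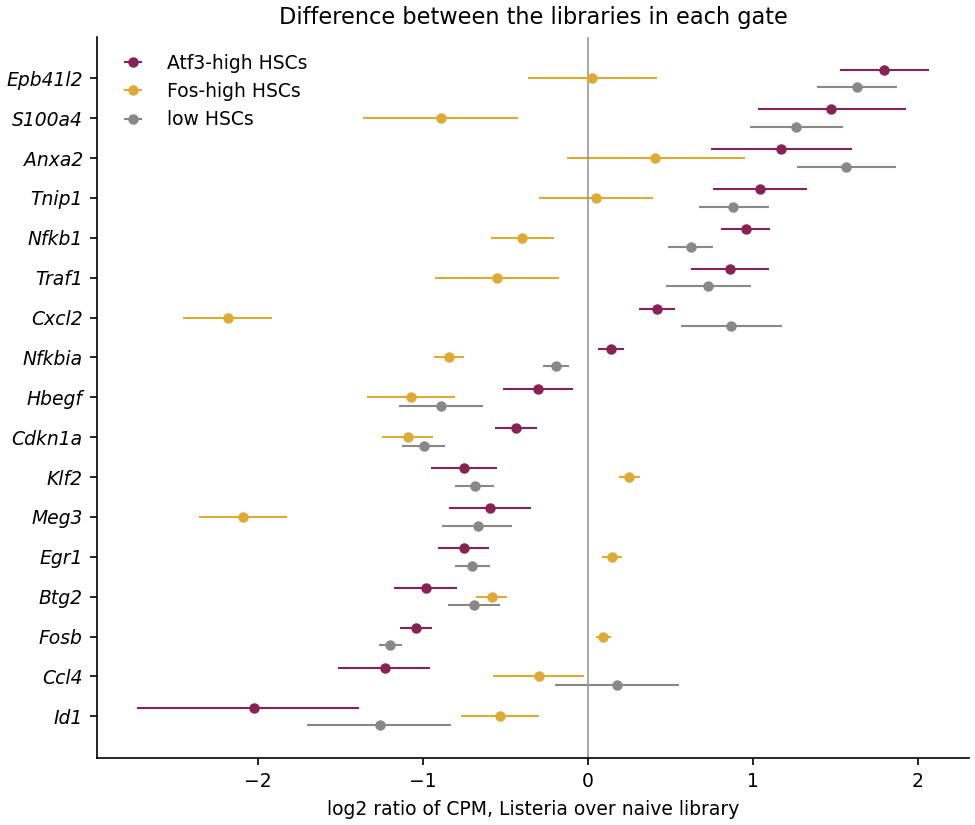
Log2 ratio of CPM, Listeria over naive library, for 17 genes in Atf3-high, Fos-high and low HSCs, with exact 95% counting intervals as bars. Epb41l2 had a ratio of 1.80 in Atf3-high and near 0 in Fos-high HSCs.

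The largest decreases belonged to genes of other blood cells. S100a8 and S100a9, neutrophil granule genes, stood at 445 and 561 CPM in naive and 17.4 and 21.0 CPM in Listeria Atf3-high HSCs. Without the 3 naive cells named above, the naive levels were 32.3 and 37.7 CPM, still above the Listeria ones. Ighm and Igkc, immunoglobulin genes of B-lineage cells, stood at 113 and 252 CPM in the naive and 9.15 and 34.8 CPM in the Listeria library. Low HSCs of the naive library had 109 and 214 CPM, and the free RNA of barcodes with 1 to 50 UMIs had 2641 and 5174 CPM in the naive and 1637 and 4131 CPM in the Listeria library. Much of the S100a8 and S100a9 differences thus lay in the 3 naive cells. The part of free RNA in these 4 differences, and of single cells in those of Ighm and Igkc, was not tested.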

How the data were processed

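The authors deposited unfiltered UMI counts per gene and barcode for each library, made with Cell Ranger 3.0.2 on build mm10 per the submitters' processing notes. The naive and Listeria libraries held 64619150 and 43895966 UMIs and 31053 genes. The labels' protocol names the 3' v2 kit, while each file lists 6794880 barcodes, and the kit was not settled here. Filters on cells, gates, sums and CPM were computed from the deposited counts with Python 3.11.15, numpy 2.4.6, scipy 1.17.1 and pandas 2.3.3, and TMM factors with edgeR 4.0.16 in R 4.3.3. The calls and intervals were tested on simulated data.

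The members, the gene lists and the alternatives were chosen with earlier results of these data known. Genes with a mean of at least 20 CPM over the 6 sets were compared, without the genes of the selection. Named genes were taken from the 12 highest and 12 lowest genes of each comparison with at least 50 CPM, and from up to 6 measured genes of each list by level. Intervals are exact Poisson for a CPM, from the exact binomial split for a ratio, and Clopper-Pearson for a share. UMIs of 1 library are not biological replicates. Doublets were not called, and the deepest 5% of cells were left out as an alternative. Gene positions came from GENCODE vM21 and promoters from RefSeq. Other list members, among them Zfp36, Tcf15 and Runx1, were named after their values were seen.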

Additional observations from a re-analysis of the deposited data

Results flagged for a closer look

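S100a8 and S100a9 had opposite directions in the 2 libraries when Atf3-high HSCs were set against Fos-high HSCs. The log2 ratio of S100a8 was 3.39 (naive) and -0.69 (Listeria), and that of S100a9 was 4.02 and -0.75. The difference was not tested, since each group has 1 library. In the naive library, 68.0% of the S100a8 and 64.6% of the S100a9 UMIs of Atf3-high HSCs came from 1 cell. Without the HSC-gated cells with at least 20 UMIs of the pair (3 naive Atf3-high cells, 4 naive low cells and 1 Listeria Fos-high cell), the naive S100a8 ratio was -0.40.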

How the results depend on the processing

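The cell thresholds set the share of Atf3-high HSCs but not its order between the libraries. In the naive and the Listeria library it was 38.3% and 20% with at least 3 Atf3 UMIs, and 18.5% and 7.84% with at least 10, and with under 3 Fos UMIs the naive share was 25%. Gene counts moved most for genes lower than in low HSCs (51 as reported), which numbered 119 with an HSC sum of at least 8, 95 with at least 10 Atf3 UMIs, 94 with both genes scaled to the median depth, 167 after thinning and 24 with TMM. TMM gave 384 genes higher and 152 lower than in Fos-high HSCs. Thinning gave 777 genes higher and 705 lower in the Listeria library. With a mean of at least 10 CPM, 657 genes were lower than in Fos-high HSCs, 127 higher and 179 lower than in low HSCs, and 840 higher and 842 lower in the Listeria library. With at least 50 CPM, 136 and 83 genes were higher and lower than in Fos-high HSCs, 51 and 8 than in low HSCs, and 159 and 131 in the Listeria library. Of the gene ratios, Mki67 in the naive library turned to 1.21 against Fos-high and 0.58 against low HSCs with an HSC sum of at least 8. Ighm in the Listeria library turned to 0.54 against Fos-high HSCs after free RNA was subtracted (1.16% of naive and 1.21% of Listeria UMIs). Without the cells rich in S100a8 and S100a9, an alternative chosen after seeing the data, S100a8 in the naive library turned to -0.40 against Fos-high and -0.21 against low HSCs. Without the 1 low HSC richest in Cxcl10, also left out after seeing the data, the Listeria ratio of Cxcl10 to low HSCs was 3.95. Apart from the thresholds, filters, thinning and scaling themselves, the cause of these changes was not tested. Of 320 gene ratios and list medians, 106 moved (a gene beyond its counting interval, a list by a fixed margin) with an HSC sum of at least 8 and 81 with at least 10 Atf3 UMIs, but 1 with at least 4000 UMIs per cell. Listeria Atf3-high HSCs had the fewest summed UMIs of the 6 sets, and Mki67 rested on 21 UMIs there. No paired analysis was possible because each group has 1 library.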
